A study of Mus musculus with 2 samples.

Results

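The genes described here carry dietary fat, sterols and retinol through the absorptive cell of the small intestine. They are 33 genes chosen by symbol, and all 33 have a row in the deposited table of 27275 genes. RNA came from small intestine of naive mice, described in the design text as its proximal part, with 1 library per genotype. The library labelled WT has the genotype Spib+Villin-Cre, and the library labelled KO has Spibfl/flVillin-Cre, so that both labels name the Cre. Cre under the villin promoter is active in intestinal epithelium, where it removes the floxed Spib, a gene for an ETS transcription factor of M cells and B cells. The sources used here do not give age, sex, diet, feeding state or the number of mice behind each library. With 1 library per genotype there was no replicate check and no test of genotype: a difference given below separates one library from the other.

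Enterocytes take up fatty acids and monoacylglycerol from the lumen, bind them to small cytosolic proteins and activate the fatty acids with coenzyme A. In the endoplasmic reticulum these are rebuilt into triglyceride, which is either loaded onto apolipoprotein B to form chylomicrons or held for a time in cytosolic lipid droplets. Cholesterol enters by its own transporter, is esterified, and leaves in the same particles or is pumped back to the lumen.

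Values are FPKM, reads scaled by gene length and by library size, so they can be set side by side between genes. For each gene, the log2 ratio stands for log2((KO FPKM + 1) / (WT FPKM + 1)). Counts of genes past 1.5-fold or 2-fold use this ratio, which understates the difference of low genes. Folds printed for single genes are plain ratios of FPKM, and the interval beside a fold is an exact Clopper-Pearson 95% interval for counting error only. The labels mention no molecular identifiers, and PCR copies of one molecule count as separate reads, which makes the intervals narrower than the true counting error. Variation between mice is not in them. The implied depth was 17425640 reads for the WT library and 17658566 for the KO library. Spib had 4.94 FPKM in the WT library and 0.592 in the KO library, the direction the labels give. B cells also express Spib, and 6 B and plasma cell markers summed to 213 FPKM in the WT library and 68.9 in the KO library. The part of B cells in the Spib values was not tested.

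The tissue carried genes of the distal as well as the proximal gut. The ileal bile acid binding protein Fabp6 ranked 17th among all genes of the WT library, at 2030.2 FPKM against 1735 in the KO library, and the ileal bile acid transporter Slc10a2 had 92.6 and 92.1. Of the genes known to be higher in duodenum and jejunum, Lct had 190 and 199 FPKM and Gata4 had 15.7 and 17.2, while the duodenal factor Pdx1 had 4 reads in the WT library and 1 in the KO library. Genes of the ileum were thus abundant, and the defining duodenal factor near 0, in tissue that the design text calls proximal. The 15 enterocyte markers that are not among the 33 genes had a median log2 ratio of -0.01 and summed to 8465 FPKM in the WT library and 8173 in the KO library. Single markers were uneven, with 7 log2 ratios above 0 and 8 below. The lowest was -0.53 for Anpep, at 1888 FPKM in the WT library and 1307 in the KO library. The highest was 0.47 for Sis, at 868 and 1203.

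Fat absorption genes were abundant in both libraries and differed little between them. Of the 33 genes, 32 reached 1 FPKM in at least 1 library and were compared, and all 32 reached it in both. Of the 33 genes, 16 had at least 100 FPKM in each library. No compared member was 2-fold higher or lower in the KO library, where 1.61% of the 13479 genes compared were at least 2-fold higher and 2.51% at least 2-fold lower. At least 1.5-fold higher were 2 of the 32, Rbp2 and Fabp1, against 3.56% of all compared genes. None was 1.5-fold lower, against 5.69% of all compared genes. Shares this near the background say nothing particular about the members.

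The median log2 ratio of the 32 genes was 0.01, beside -0.05 over all compared genes, and it turned to -0.02 when FPKM was rescaled to the same sum in each library. Sizes of difference were ordinary as well, with a median absolute log2 ratio of 0.18 for the members and 0.16 for all compared genes. Among the members, 68.8% lay within 0.25 of 0 on the log2 scale, beside 67.8% of all compared genes. The fewest reads behind a compared member in either library were 179. Counting error alone was smaller than the difference for 21 of the genes, 11 higher and 10 lower in the KO library, and the interval held a ratio of 1 for another 11.

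**Figure D1:**
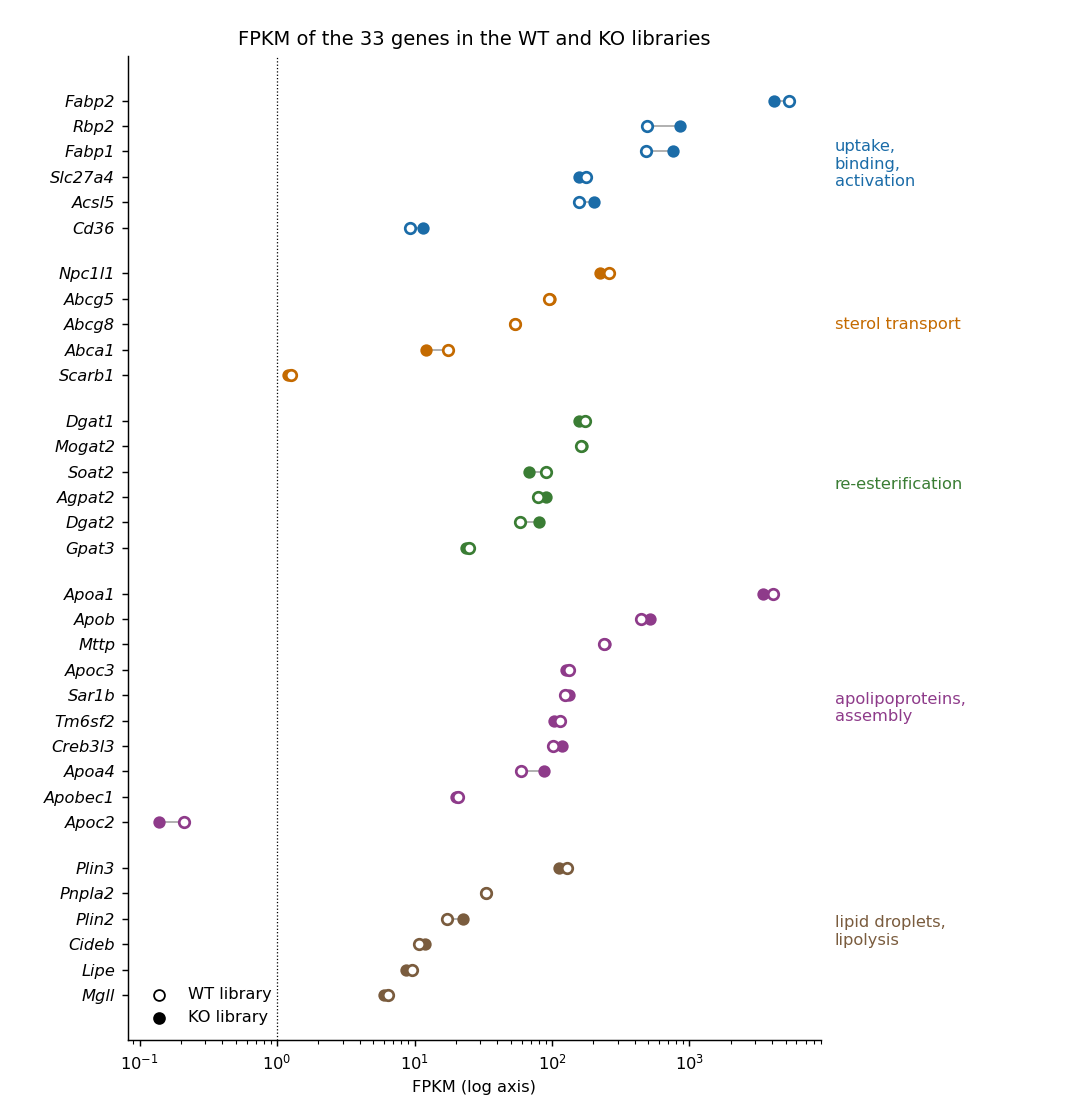
FPKM of each of the 33 genes on a log axis, in the WT library (open circles) and the KO library (filled circles), grouped by step and ordered by the WT value. The dotted line marks 1 FPKM, below which Apoc2 lies in both libraries, and Fabp2 and Apoa1 are the most abundant genes in both.

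**Figure D2:**
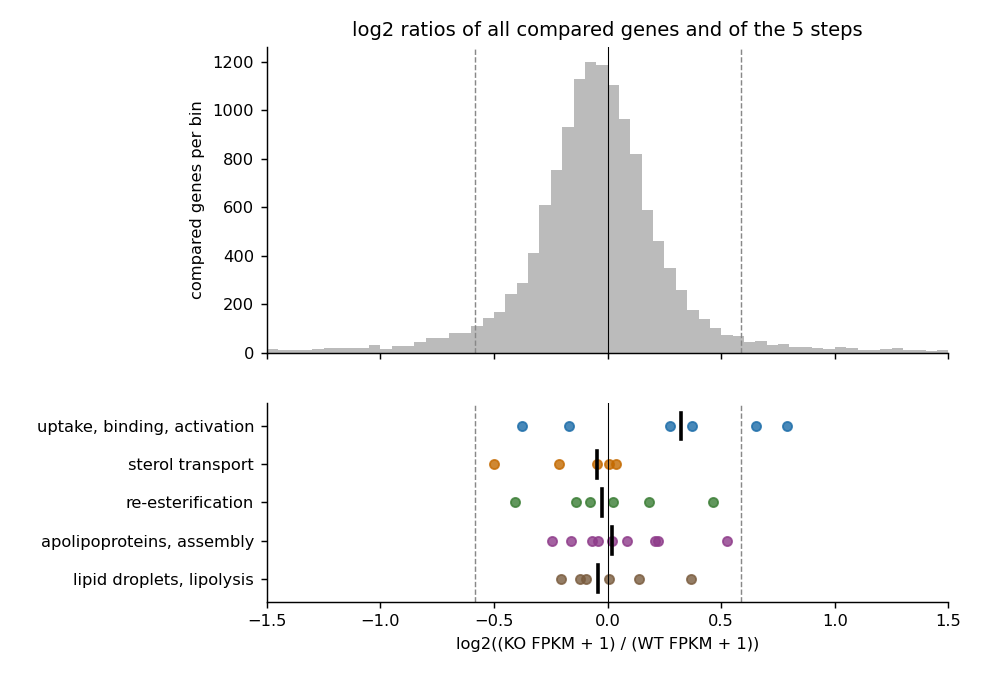
Histogram of the log2 ratio of all compared genes (top; the few ratios beyond the axis are not drawn) and the ratio of each compared member by step (bottom), with the median of each step as a black bar. Dashed lines mark 1.5-fold, which Rbp2 and Fabp1 pass in the KO direction and no member passes in the other.

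Abundance was concentrated in a pair of genes. Fabp2 and Apoa1 together held 71.3% of the summed FPKM of the 33 genes in the WT library and 62.6% in the KO library. Their sum was 9395 FPKM in the WT library and 7539 in the KO library. The other 31 genes summed to 3783 FPKM and 4503. The sum over all 33, at 13177 and 12042, was thus lower in the KO library while the sum of the rest was higher. Most of the difference in the rest came from Rbp2, at 493 and 853 FPKM, and Fabp1, at 486 and 764. The genes were split in this way with the values known. As a share of all FPKM, the 33 genes held 3.57% of the WT library and 3.19% of the KO library. A summed level therefore follows a few abundant genes, and the account below is by gene.

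The step of uptake, binding and activation held the members with the highest log2 ratios, Rbp2 and Fabp1, and also members below 0. Its 6 genes had a median log2 ratio of 0.32, from -0.38 for Fabp2 to 0.79 for Rbp2, and that median lay between 0.28 and 0.37 under every pseudocount, filter and scaling tried. The median absolute log2 ratio of these genes was 0.37, beside 0.16 over all compared genes. The set of genes is small and was grouped with results of these libraries known, so these values are a description.

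Rbp2 had 493 FPKM in the WT library and 853 in the KO library, 1.73-fold higher in the KO library (1.68 to 1.78). It encodes the cytosolic retinol binding protein of enterocytes, which hands newly absorbed vitamin A to the enzyme that esterifies it, and the gene lies on the plus strand of chromosome 9, 98486115 to 98509781 (mm10). Its rank among all genes went from 88 in the WT library to 49 in the KO library. Fabp1 (chromosome 6, 71199827 to 71205023), the liver-type fatty acid binding protein, had 486 FPKM in the WT library and 764 in the KO library. That is 1.57-fold higher (1.52 to 1.63). These were the members farthest from 0 on the log2 scale.

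Fabp2 (chromosome 3, 122895072 to 122899506), the intestinal-type fatty acid binding protein, lay in the other direction. It was the fifth most abundant gene of the WT library at 5325 FPKM and ranked 10 in the KO library at 4103 FPKM, 1.30-fold lower (1.29 to 1.31). Both binding proteins carry long-chain fatty acids in the enterocyte cytosol, and their ratio does not depend on how the libraries were scaled. This ratio and those of other related genes below were picked with the values known. Fabp1 stood at 0.0912 of Fabp2 in the WT library and at 0.186 in the KO library. The ratio was thus 2.04 times as high in the KO library, with a counting interval of 1.97 to 2.12 from Poisson errors on the log scale, although neither gene reached 2-fold by itself.

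The sequence around the start of these 3 genes is shown because they include the members past 1.5-fold in the KO library and the related binding protein that lay the other way. Each is the RefSeq window on GRCm38.p6 from 250 bases before the start to 50 after it. The windows, all on the plus strand, are chr9:98490287-98490586 for Rbp2, chr6:71199629-71199928 for Fabp1 and chr3:122894822-122895121 for Fabp2. The RefSeq starts of Rbp2 and Fabp1 lie inside the longer GENCODE genes. Capitals mark GGAA, the core bound by ETS factors, and TATAAA, the TATA box, on either strand.
Rbp2: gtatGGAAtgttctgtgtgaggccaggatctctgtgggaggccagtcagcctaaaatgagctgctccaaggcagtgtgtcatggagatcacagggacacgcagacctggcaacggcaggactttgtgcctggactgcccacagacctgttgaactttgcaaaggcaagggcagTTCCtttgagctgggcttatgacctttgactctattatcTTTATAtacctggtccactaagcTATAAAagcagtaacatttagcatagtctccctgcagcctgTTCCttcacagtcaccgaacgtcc
Fabp1: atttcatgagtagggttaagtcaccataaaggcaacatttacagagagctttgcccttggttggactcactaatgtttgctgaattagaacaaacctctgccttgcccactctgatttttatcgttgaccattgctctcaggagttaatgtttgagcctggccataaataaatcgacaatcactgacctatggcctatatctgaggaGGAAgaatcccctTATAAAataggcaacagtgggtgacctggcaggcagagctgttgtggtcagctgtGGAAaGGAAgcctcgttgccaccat
Fabp2: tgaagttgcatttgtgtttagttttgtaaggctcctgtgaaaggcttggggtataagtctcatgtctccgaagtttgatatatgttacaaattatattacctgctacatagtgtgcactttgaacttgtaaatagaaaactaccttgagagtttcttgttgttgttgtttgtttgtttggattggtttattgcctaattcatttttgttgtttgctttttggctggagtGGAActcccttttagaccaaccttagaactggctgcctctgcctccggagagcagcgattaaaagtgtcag

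The ETS core was found 3 times in the window of Rbp2, 3 times in that of Fabp1 and once in that of Fabp2. A core of 4 letters is common: 96% of all 32851 promoter windows held it, as did the windows of all 26 members that matched the promoter table. The longer site of SPIB and PU.1, searched as GAGGAAGT, which contains the ETS core, was in 3.2% of all windows and in none of the 30 windows of these 26 members. The HNF4 site, searched as CAAAGTCCA, was in 0.475% of all windows and in none of theirs. TATAAA was in 13.6% of all windows and in 8 of the 30. A match of letters is only a description, and the absence of a match says only that these letters are not in the window.

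The other genes of uptake and activation differed less. Acsl5, a long-chain acyl-CoA synthetase that activates fatty acids, had 157 FPKM in the WT library and 203 in the KO library, 1.29-fold higher (1.27 to 1.32). Slc27a4, the fatty acid transport protein FATP4, had 177 FPKM and 158, 1.13-fold lower in the KO library (1.10 to 1.15). Cd36, a scavenger receptor that binds long-chain fatty acids at the cell surface, was much less abundant, with 9.30 FPKM in the WT library and 11.5 in the KO library, 1.23-fold higher (1.10 to 1.38). Capillary endothelium and adipocytes also express Cd36. All 9 endothelial and lacteal markers were detected and summed to 31.8 FPKM in the WT library and 33.8 in the KO library. The 10 adipocyte markers summed to 111 and 136 FPKM, of which Pck1, also an enterocyte gene, gave 53.9 and 52.1. Without Cidec, which is also a pathway gene described below, the sums were 84.6 and 88.2 FPKM. With Cidec included, 5 of the 8 compared adipocyte markers had log2 ratios below 0 and 3 above. The adipocyte hormone leptin (Lep) had 18 reads in the WT library and 1 in the KO library, and adiponectin (Adipoq) had 3.66 and 4.06 FPKM. Their part in the Cd36 values was not tested. In bulk tissue, fewer cells of a type and less RNA per cell cannot be told apart, here and for every gene below.

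Sterol transporters were level except for Abca1 and, by less, Npc1l1. The 5 genes had a median log2 ratio of -0.05, which became 0.00 when centred on the median of all compared genes. Npc1l1 imports cholesterol across the brush border and is the target of ezetimibe. It was the most abundant of the 5, with 258 FPKM in the WT library and 222 in the KO library, 1.16-fold lower (1.14 to 1.18).

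Abcg5 and Abcg8 encode the partner subunits of the transporter that returns cholesterol and plant sterols to the lumen. They overlap in part on opposite strands of chromosome 17 (84658234 to 84683011 and 84676302 to 84700333). Of their exon bases, 3.02% for Abcg5 and 2.19% for Abcg8 also lie in exons of the other gene. Abcg5 had 94.6 FPKM in the WT library and 97.0 in the KO library, a ratio of 1.03 (0.985 to 1.07). Abcg8 had 53.5 FPKM and 53.8, a ratio of 1.004 (0.958 to 1.05). Counting intervals of both held 1. Abcg8 stood at 0.566 of Abcg5 in the WT library and at 0.554 in the KO library, so the pair kept its proportion within counting error.

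Abca1 (minus strand of chromosome 4, 53030787 to 53159895) exports cholesterol across the basolateral membrane to apolipoprotein A-I. It had 17.6 FPKM in the WT library and 12.2 in the KO library, 1.45-fold lower (1.37 to 1.53), the lowest log2 ratio among the members at -0.50. Macrophages express this gene strongly, and macrophage markers were lower in the same library. All 8 markers were detected, and they summed to 201 FPKM in the WT library and 139 in the KO library. The sum was 1.44-fold lower in the KO library, led by Lyz2 at 91.9 and 60.4 FPKM and C1qa at 42.6 and 28.4. Single markers were uneven, since 5 of the 8 had log2 ratios below 0 and 3 above. Those above were Adgre1 at 4.99 and 5.51 FPKM, Mrc1 at 3.53 and 3.71, and Cd163 at 1.73 and 2.32. The part of macrophages in the Abca1 value was not tested.

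Scarb1, the lipoprotein receptor SR-BI, was at the bottom of the sterol genes with 1.26 FPKM in the WT library and 1.19 in the KO library. Its ratio of 0.945 had a counting interval of 0.765 to 1.17, from 187 and 179 reads. A difference within that interval was not detectable at this depth. The intestinal factor Isx, a repressor of Scarb1 picked for mention with its values known, had 82.3 FPKM in the WT library and 60.6 in the KO library.

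In re-esterification Mogat2, which opens the main route, was level, while the enzymes of the last step differed from one another. The 6 genes had a median log2 ratio of -0.03, from -0.41 for Soat2 to 0.46 for Dgat2, and centring on the median of all compared genes brought the median to 0.02. Mogat2, which adds a fatty acid to absorbed monoacylglycerol and opens the main intestinal route, had 164 FPKM in the WT library and 166 in the KO library, a ratio of 1.02 (0.979 to 1.06).

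Of the glycerol phosphate route, the members Gpat3 and Agpat2 were also close, while Lpin2, which is not a member, differed more and is given below. Gpat3, the acyltransferase that starts the route, had 25.0 FPKM in the WT library and 23.7 in the KO library, a ratio of 0.947 (0.881 to 1.02). Agpat2, which makes phosphatidic acid, had 79.4 FPKM and 90.4, 1.14-fold higher in the KO library (1.08 to 1.20). Gpat3 stood at 0.153 of Mogat2 in the WT library and at 0.142 in the KO library, a change within counting error. Exons of Gpat3 share 37.4% of their bases with other annotated genes, which adds to the uncertainty of its value.

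Dgat1 and Dgat2 are unrelated in sequence and catalyse the same reaction, the addition of the last fatty acid of triglyceride. Dgat1 had 174 FPKM in the WT library and 158 in the KO library, 1.10-fold lower (1.07 to 1.14). Dgat2 (chromosome 7, 99153658 to 99182719) had 58.4 FPKM and 81.0, 1.39-fold higher in the KO library (1.32 to 1.45). Dgat1 was the more abundant in both libraries, and Dgat2 stood at 0.336 of it in the WT library and 0.514 in the KO library. That ratio was 1.53 times as high in the KO library (1.45 to 1.61). Soat2, the enzyme that esterifies absorbed cholesterol, had 90.8 FPKM and 68.2, 1.33-fold lower in the KO library (1.27 to 1.40). Counting intervals lay below 1 for Soat2 as for the cholesterol transporters Npc1l1 and Abca1, and held 1 for Abcg5, Abcg8 and Scarb1.

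**Figure D3:**
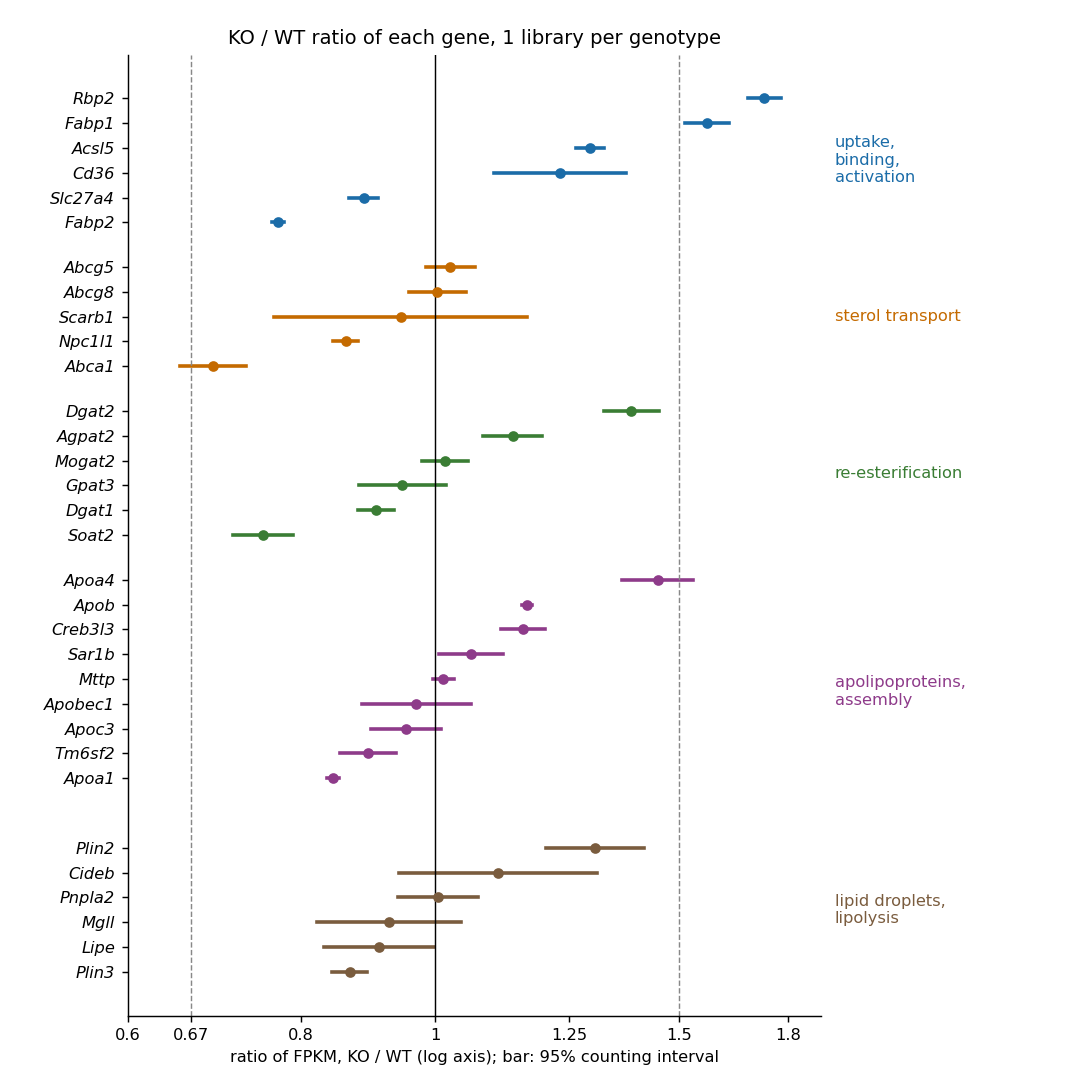
Ratio of FPKM, KO over WT, for each member on a log axis (points) with the 95% counting interval from recovered reads (bars), by step. Dashed lines mark 1.5-fold in each direction; Apoc2, with 3 and 2 reads, is left out, and Rbp2, Fabp1, Apoa4 and Dgat2 lie farthest to the right.

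Chylomicron assembly genes kept close to their WT levels, with Apoa4 as the gene farthest away. The 9 compared genes had a median log2 ratio of 0.02, which turned to -0.01 when FPKM was rescaled to the same sum. Apob encodes the structural protein of the particle and spread over the most reads of all members, 108238 in the WT library and 127833 in the KO library. It had 446 FPKM in the WT library and 519.5 in the KO library, 1.17-fold higher (1.16 to 1.17). Mttp, the transfer protein that loads lipid onto apolipoprotein B, had 239 FPKM and 242, a ratio of 1.01 (0.997 to 1.03). Mttp stood at 0.536 of Apob in the WT library and 0.466 in the KO library.

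Apobec1, the deaminase that edits Apob mRNA so that enterocytes make the short form of the protein, had 20.8 FPKM in the WT library and 20.1 in the KO library, a ratio of 0.970 (0.886 to 1.06). Whether the edited share of Apob differed cannot be read from gene level values. Tm6sf2, a membrane protein that takes part in lipidation of the particle, had 115 FPKM and 103, 1.12-fold lower in the KO library (1.07 to 1.17). Sar1b, the GTPase of the coat that carries chylomicrons out of the endoplasmic reticulum, had 124 FPKM and 132, 1.06-fold higher (1.01 to 1.12). Creb3l3, a membrane-bound factor that activates apolipoprotein genes, had 101 FPKM and 117, 1.16-fold higher (1.12 to 1.20). All of these lay within 1.2-fold.

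Apoa1, Apoc3 and Apoa4 stand in one cluster on chromosome 9, and the neighbours did not keep one proportion. Apoa1 (46228580 to 46230466), the main protein of high-density lipoprotein, had 4069.6 FPKM in the WT library and 3436 in the KO library, 1.18-fold lower (1.17 to 1.20). Apoc3 (46232933 to 46235636), an inhibitor of lipoprotein lipase and of particle clearance, had 132 FPKM and 126, a ratio of 0.953 (0.899 to 1.01). Apoa4 (46240696 to 46243459), a protein of nascent chylomicrons that rises in the gut with fat feeding, had 59.9 FPKM and 86.8, 1.45-fold higher in the KO library (1.37 to 1.54). Apoa4 stood at 0.0147 of Apoa1 in the WT library and 0.0253 in the KO library, a ratio 1.72 times as high (1.62 to 1.82). Apoc3 relative to Apoa1 was 1.13 times as high (1.06 to 1.20).

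Levels of Apoa4 carry a limit that is not shared by Apoa1 and Apoc3. In GENCODE M21, 69.8% of the exon bases of Apoa4 also lie in exons of Gm10680 or Gm47528, and neither Apoa1 nor Apoc3 has such an overlap. Reads in shared bases can be left unassigned or be given to either gene, depending on strand and counting settings that the sources used here do not give. Gm10680 has no row in the deposited table. The identifier of Gm47528, named AC116503.1 there and transcribed from the opposite strand, had 1.86 FPKM in the WT library and 4.44 in the KO library. The part of this overlap in the Apoa4 values was not tested. Apoa4 is also known to be highest toward the villus tip, and the 5 villus tip markers were uneven. Among them Nt5e had 7.15 FPKM in the WT library and 19.7 in the KO library, Slc28a2 had 65.0 and 83.9, and Ada had 136 and 118. The part of villus position was not tested either.

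Apoc2, the activator of lipoprotein lipase, was the one member not compared, with 0.212 FPKM in the WT library and 0.139 in the KO library. These come from 3 and 2 reads, so no fold is given. In the annotation, 79.5% of its exon bases also lie in exons of Gm44805, which has no row in the deposited table. The part of this overlap in the low value was not tested.

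Lipid droplet genes had the lowest summed level of the steps, at 205 FPKM in the WT library and 194 in the KO library. Of these only Plin2 and Plin3 had counting intervals well away from 1. The 6 genes had a median log2 ratio of -0.04, which became 0.01 when centred on the median of all compared genes. Plin2, the coat protein of droplets that is stable only when bound to them, had 17.1 FPKM in the WT library and 22.3 in the KO library, 1.31-fold higher (1.20 to 1.42). Plin3, a coat protein that moves from the cytosol to nascent droplets, had 129 FPKM and 112, 1.15-fold lower in the KO library (1.12 to 1.19). Plin2 stood at 0.133 of Plin3 in the WT library and at 0.2002 in the KO library, 1.505 times as high (1.38 to 1.64).

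Cideb, which takes part in droplet fusion and in lipidation of lipoproteins, had 10.7 FPKM in the WT library and 11.9 in the KO library, a ratio of 1.11 (0.942 to 1.31). Its exons share 76.3% of their bases with Nop9, which had 5.83 and 4.95 FPKM, so its value is uncertain. Lipases of the droplet followed in order of abundance. Pnpla2, the triglyceride lipase ATGL, had 33.1 FPKM and 33.2, a ratio of 1.005 (0.940 to 1.07). Lipe, hormone-sensitive lipase, had 9.58 FPKM and 8.74, a ratio of 0.912 (0.832 to 0.999), and Mgll, monoacylglycerol lipase, had 6.44 and 5.97, a ratio of 0.926 (0.822 to 1.04). None of the 3 lipases was more than 1.1-fold from its WT level.

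Other genes of the pathway, from 4 lists of 75 genes, were mostly as close. Of these, 72 matched the table by symbol and 65 were compared, with a median log2 ratio of -0.04. By the log2 ratio, at least 1.5-fold higher were 3 and at least 1.5-fold lower were 0, beside 3.56% and 5.69% of all compared genes. Acsl3, an acyl-CoA synthetase of the endoplasmic reticulum and of droplets, had 6.19 FPKM in the WT library and 13.9 in the KO library, 2.24-fold higher (2.01 to 2.50). Lpin2, a phosphatidic acid phosphatase, had 11.9 and 18.6 FPKM, 1.56-fold higher (1.48 to 1.64). Acsl1, another acyl-CoA synthetase, had 5.12 and 7.96 FPKM, a plain ratio of 1.56 (1.43 to 1.69) with a log2 ratio of 0.55 that leaves it just short of that count. Cidec, a droplet fusion protein related to Cideb, had 26.7 and 47.3 FPKM, 1.77-fold higher (1.63 to 1.92). Cidec is also a marker of adipocytes, whose other droplet coat Plin1 had 1.04 and 0.804 FPKM.

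By list, the 15 genes of fatty acid activation and glycerolipid synthesis had a median log2 ratio of 0.22, with 2 at least 1.5-fold higher by the log2 ratio and none lower. Cargo export and APOB editing, with 18 compared genes, had a median of -0.06 and no gene past 1.5-fold, and the 14 droplet genes had -0.09 with 1 higher. None of the 18 nuclear receptors and factors reached 1.5-fold in either direction, and their median was -0.04. Of the 18, 6 had log2 ratios above 0 and 12 below. Among them, picked with their values known, Hnf4a had 203 FPKM in the WT library and 198 in the KO library. Hnf4g had 176 and 179, and Ppara, a fatty acid receptor, had 10.9 and 12.1. Isx, given above, lay farthest from 0. It was followed by Ppard at 41.3 FPKM in the WT library and 31.2 in the KO library, Nr1h2 at 26.4 and 20.4, and Pparg at 2.18 and 3.05.

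**Figure D4:**
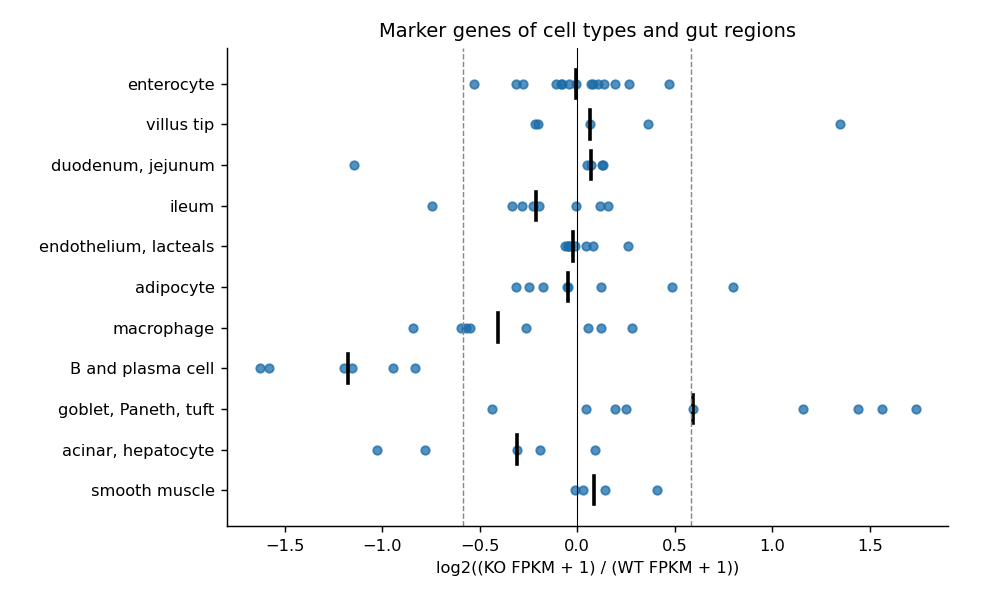
Log2 ratio of each compared marker gene (points) of 11 cell type and region lists, with the median of each list as a black bar and dashed lines at 1.5-fold. Enterocyte markers have a median of -0.01 and run from -0.53 to 0.47. The 6 B and plasma cell markers all lie below 0, and goblet, Paneth and tuft cell markers run from -0.44 to 1.74.

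Marker lists of other cell types ranged from differing less than the members to differing more. The median absolute log2 ratio was 0.05 for endothelial and lacteal markers, 0.09 for smooth muscle markers and 0.11 for enterocyte markers. It was 0.18 for the members, 0.59 for goblet, Paneth and tuft cell markers and 1.18 for B and plasma cell markers. The 6 B and plasma cell markers summed to 213 FPKM in the WT library and 68.9 in the KO library, and the 9 goblet, Paneth and tuft cell markers to 11259 and 12604. Of these 9, 8 had log2 ratios above 0, while Lyz1, at 5754 and 4250 FPKM, lay below. The tuft cell markers Trpm5, Dclk1 and Pou2f3 had 1.39 and 6.96, 1.14 and 4.81, and 0.799 and 3.01 FPKM. Clca1 had 696 and 2059 FPKM. Ileal markers summed to 3997 and 3403 FPKM. Of these 8 genes, 6 had log2 ratios below 0 and 2 above, and Muc13, at 763 and 455 FPKM, lay farthest from 0. Markers of duodenum and jejunum summed to 227 and 234 FPKM. Lct gave most of that, and without it the sums were 37.4 and 34.3 FPKM. In that list the iron exporter Slc40a1 had 8.75 and 3.41 FPKM, 2.57-fold lower in the KO library (2.32 to 2.84). Smooth muscle markers summed to 426 and 444 FPKM, and acinar and hepatocyte markers to 12.9 and 8.53. Alb and Fgb were listed at 0 in the KO library and had only 5 and 4 reads in the WT library. The part of region or cell makeup in the values of Rbp2, Fabp1, Fabp2 and the other members was not tested.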

How the data were processed

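The authors deposited 1 table of FPKM values, with 1 column for each of the 2 libraries. Per the labels' protocols, RNA was extracted with TRIzol and cDNA was amplified by SMART-SeqII. The submitters' processing notes name Bowtie2 2.2.3, HTSeq 0.6.0 and the build mm10, without their roles. The sources used here do not state strand, annotation or pooling. Members, steps and lists were chosen with earlier results of these data known.

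Identifiers were joined to GENCODE M21 (27222 of 27275 found). FPKM times exon length stepped in whole reads, within 0.01, for 90.6% of WT and 90.7% of KO values above 0, which gave the depths. Whole reads followed for 29 members. For Soat2, Dgat1, Plin3 and Cideb the whole pair with the observed ratio nearest the estimate was used. Recovery was tested on simulated data. Genes of at least 1 FPKM in either library were compared, with a pseudocount of 1. Named genes are all members, Spib, pathway genes past 1.5-fold by the log2 ratio and the markers needed for context. Other pathway genes, such as Acsl1, Isx and Hnf4a, were picked with their values known. One gene of the pathway lists is not reported here and was left out of their counts. Python 3.11.15, pandas 2.3.3 and scipy 1.17.1 were used. Alternatives were pseudocounts of 0.1 and 5 FPKM, other filters, and other scalings.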

Additional observations from a re-analysis of the deposited data

How the results depend on the processing

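Counts of members past 2-fold and 1.5-fold stayed the same under all 7 alternatives: none past 2-fold, 2 at least 1.5-fold higher and none lower. The median of the members ranged from -0.02 to 0.06 and that of uptake genes from 0.28 to 0.37. Medians of the other 4 steps stayed between -0.10 and 0.07 and took either sign. Rescaling to an equal sum turned the sign of Pnpla2, Mogat2, Mttp and Abcg8, and centring on all compared genes turned that of Apobec1 and Scarb1; all 6 lay within 0.05 of 0. Over all compared genes, counts at least 2-fold higher and lower were 217 and 338, against 355 and 575 with a pseudocount of 0.1 FPKM, 61 and 122 with 5 FPKM, and 97 and 193 among the 7633 genes of at least 5 FPKM. Counts at least 1.5-fold higher and lower were 480 and 767, against 168 and 277 with a pseudocount of 5 FPKM and 220 and 352 among genes of at least 5 FPKM, and the lower count was 1168 with 0.1 FPKM. No paired analysis was possible because each genotype has 1 library, and no replicate could be left out.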
